A study of Homo sapiens with 18 samples.

Results

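The endoplasmic reticulum (ER) folding and quality-control genes were followed across 2 human neuroblastoma lines in which the kinase ERK5 (gene MAPK7) was silenced. The set is a list of 38 genes taken by symbol from the array's probe annotation. Only probes that carried 1 gene symbol were used, and these held 17687 symbols. Of the 38 genes, 37 had such a probe. HSP90B1, which encodes the chaperone GRP94, had no probe that named it alone and was not analysed here. Total RNA was measured on 18 whole-transcript arrays, 3 biological replicates in each of 6 groups. SK-N-BE(2), a MYCN-amplified line, and CHLA-90, a line without that amplification, each received pLKO lentivirus made in HEK-293T cells and carrying 1 of 3 short hairpin RNAs: the control shNSC, shERK5-4 or shERK5-5. RNA was taken 72 hours later. All groups were therefore transduced with virus, the cells of a well were measured as 1 pool, and each line is an established culture from 1 tumour. In such bulk RNA, fewer cells with a transcript and less transcript per cell cannot be told apart.

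Proteins that enter the secretory pathway fold inside the ER with the help of chaperones such as BiP (HSPA5), the sugar-binding chaperones calreticulin and calnexin, and the protein disulfide isomerases. When unfolded protein builds up, 3 sensors in the ER membrane respond. IRE1 (ERN1) splices the mRNA of the transcription factor XBP1, PERK (EIF2AK3) phosphorylates eIF2-alpha, which slows translation and favours the factor ATF4, and ATF6 moves to the Golgi and is cut into an active transcription factor. Their targets include chaperones and the proteins of ER-associated degradation (ERAD), which draws misfolded proteins out to the proteasome. Arrays of this kind measure transcript amounts, and neither XBP1 splicing nor sensor activity.

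XBP1 and ATF6 act in part through the ER stress element, which is CCAAT, then 9 bases, then CCACG. A second form, ER stress element II, is ATTGG, then 1 base, then CCACG. RefSeq promoter windows (build GRCh38.p14, 250 bases before to 50 bases after each start) were at hand for 34 of the 38 genes. The windows of PDIA3, SEC24D, DERL1 and DERL3 were not in the table. With both strands searched, the ER stress element lay in the windows of 8 of the 34 genes (23.5%), against 0.0769% of 35116 windows and 25 of 27305 genes (0.0916%). Its holders were HSPA5, HSP90B1, CALR, CANX, CRELD2, ERO1B, PDIA6 and XBP1. ER stress element II lay in HERPUD1, HYOU1 and SDF2L1, 3 of 34 (8.82%), against 0.0541% of windows and 0.0696% of genes. Counted as 1, 11 of 34 genes (32.4%) had either form, against 0.131% of windows and 0.161% of genes. The short CCACG in both forms lay in 24 of 34 genes (70.6%), against 38.1% of windows and 42.1% of genes. TGACGTGG, the unfolded protein response element, lay in DNAJC10, HYOU1 and VCP (3 of 34, against 0.729% of windows and 0.927% of genes). TGACGTCA, the cyclic-AMP response core, lay in CREB3L2 alone among the 34 (1.85% of windows and 2.25% of genes). In HYOU1 TGACGTGG overlaps a further copy of ER stress element II. These genes are textbook targets, some of which defined the element, so the high share describes the list and is no result of the experiment.

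Stretches around the element are shown for 6 genes whose values are followed below, 5′ to 3′ on the gene's strand with the element in capitals. They lie at chr9:125241366-125241434 (HSPA5, minus strand), chr22:28800578-28800646 (XBP1, minus), chr2:10812828-10812896 (PDIA6, minus), chr19:12938359-12938427 (CALR, plus), chr16:56932000-56932060 (HERPUD1, plus) and chr11:119057249-119057309 (HYOU1, minus), all upstream of the start. In CALR and HYOU1 the capitals read the element from the other strand.
HSPA5: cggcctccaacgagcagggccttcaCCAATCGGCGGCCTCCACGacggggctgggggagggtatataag
XBP1: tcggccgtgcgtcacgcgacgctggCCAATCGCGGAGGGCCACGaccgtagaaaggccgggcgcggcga
PDIA6: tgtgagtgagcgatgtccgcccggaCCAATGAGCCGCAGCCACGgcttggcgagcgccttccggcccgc
CALR: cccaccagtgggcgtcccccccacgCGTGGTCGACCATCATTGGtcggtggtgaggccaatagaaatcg
HERPUD1: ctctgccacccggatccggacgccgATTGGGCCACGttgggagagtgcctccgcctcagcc
HYOU1: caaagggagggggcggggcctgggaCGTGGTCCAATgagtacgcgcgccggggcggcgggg

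Values are signals as deposited, taken as log2 though no source states the base, so a difference of 1 is read as a doubling or halving. The median signal of an array ranged from 5.63 to 5.69 for SK-N-BE(2) and from 6.35 to 6.43 for CHLA-90, and the mean correlation of an array with the others of its group was 0.989 to 0.996 in both lines. In SK-N-BE(2), MAPK7 stood at 61.8% (shERK5-4) and 64.3% (shERK5-5) of its shNSC level, and for CHLA-90 these values were 47.7% and 50.5% (adjusted p = 0.0103, 0.0319, 0.000329 and 0.00139 by limma). Of the sympathetic neuroblastoma markers, STMN2 (14.57 for SK-N-BE(2), 16.19 for CHLA-90), GATA3 (12.20, 14.03), HAND2 (10.82, 11.40), CHGA (10.31, 12.62), TH (8.07, 15.02) and DBH (4.51, 11.75) averaged higher in CHLA-90. PHOX2A (12.13, 10.69), ISL1 (12.69, 9.56) and CHGB (11.69, 10.97) averaged higher in SK-N-BE(2). Of the fibroblast markers, DCN averaged 11.63 and 11.68, LUM 13.85 and 9.49, PDGFRB 10.95 and 7.69, COL1A2 8.94 and 9.08, and COL1A1 8.88 and 5.23, in that order of lines. Of the mesenchymal neuroblastoma markers, VIM averaged 16.27 and 14.98, FN1 8.74 and 8.83, and FOSL2 7.45 and 6.27. CD44 averaged 6.38 and 6.65, FOSL1 6.29 and 4.48, YAP1 3.82 and 6.1, and PRRX1 3.55 and 4.78. Of the blood markers, PTPRC averaged 7.39 and 4.37, and CD3E, CD14 and ITGAM lay between 3.40 and 5.26. Their part in the results was not tested. Without detection calls, the signal a probe gives with no transcript is unknown.

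Each hairpin was compared with shNSC within its line by limma, with p-values adjusted over all 21448 probes by Benjamini-Hochberg and a threshold of 0.05. A gene is said to have risen, fallen or been called only where it passed. With shERK5-5, 16 of 37 genes passed in SK-N-BE(2), 10 higher and 6 lower, and 12 passed in CHLA-90, 3 higher and 9 lower. The background was 12.8% of all probes in SK-N-BE(2) (6.76% higher, 6.07% lower) and 12.7% in CHLA-90 (5.85% higher, 6.84% lower). The median log2 change of the 37 was 0.21 in SK-N-BE(2) and -0.31 in CHLA-90, against 0.00 and 0.05 over all probes. With shERK5-4, 14 of 37 passed in SK-N-BE(2), 5 higher and 9 lower, against 23.9% of all probes (12.2% higher, 11.7% lower). In CHLA-90 6 passed with shERK5-4, 2 higher and 4 lower, against 18.3% of all probes (10% higher, 8.25% lower). The medians with shERK5-4 were -0.05 and -0.06, against 0.01 over all probes in each line. The ER genes were chosen with earlier results of these data known. A count above the background, here or below, is therefore a description and no independent test.

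Most of these genes give bright signals, and bright probes are called more often. Among the 10725 probes in the brighter part of the array, split at the median of the probe means, 22.8% were called with shERK5-5 in SK-N-BE(2) and 20.5% in CHLA-90, where 16 and 12 of the 33 bright ER genes were called. With shERK5-4 the bright backgrounds were 40.8% and 30.1%, and 12 and 6 of the 33 were called, no more than the background. The counts in SK-N-BE(2) rest in part on single arrays. The count with shERK5-4 went from 14 to 9 without shNSC replicate 1 or shERK5-4 replicate 2. The count with shERK5-5 went from 16 to 10 without shNSC replicate 1 or shERK5-5 replicate 3. In all, 26 genes passed in at least 1 of the 4 comparisons, and 11 in none: HSPA5, CANX, PDIA3, DNAJB11, DNAJC10, SDF2L1, CRELD2, EDEM2, DERL2, DERL3 and ATF6B. FAF2 passed in all 4.

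**Figure D1:**
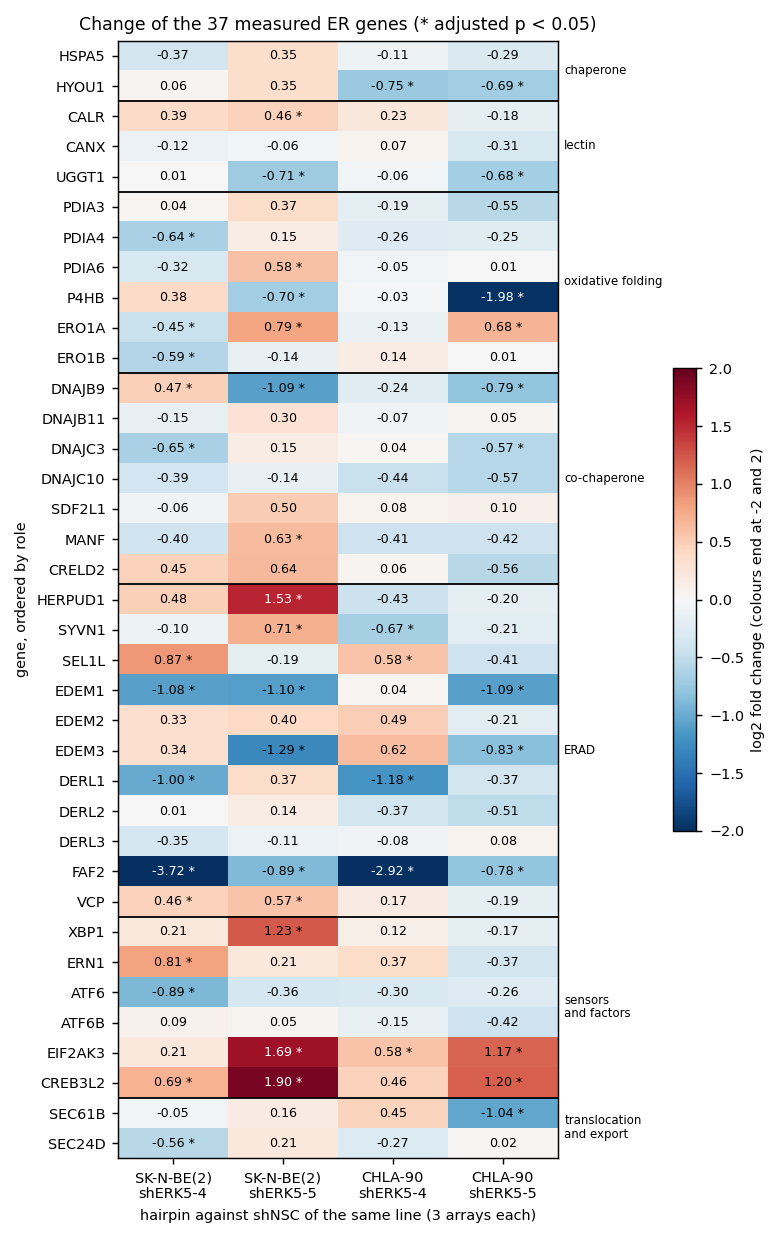
Log2 change against shNSC (colour, ending at -2 and 2) of the 37 ER genes in rows and the 4 hairpin comparisons in columns, with a star where limma's adjusted p was below 0.05. The shERK5-5 columns hold 16 stars in SK-N-BE(2) and 12 in CHLA-90, and FAF2 is starred in all 4.

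Among the sensors and transcription factors, transcripts of PERK and of CREB3L2 were higher with shERK5-5 in both lines, while XBP1 passed in SK-N-BE(2) and not in CHLA-90. Of 6 such genes measured, 3 rose and 0 fell with shERK5-5 in SK-N-BE(2), and 2 rose and 0 fell in CHLA-90. With shERK5-4, 2 rose and 1 fell in SK-N-BE(2), and 1 rose and 0 fell in CHLA-90. Of all probes, 6.76% and 5.85% were higher with shERK5-5 in the 2 lines, and 12.2% and 10% with shERK5-4. The shares lower were 6.07% and 6.84% with shERK5-5, and 11.7% and 8.25% with shERK5-4. Among the brighter probes, 22.8% and 20.5% were called with shERK5-5, and 40.8% and 30.1% with shERK5-4. The counts with shERK5-4 are near or below the latter shares.

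EIF2AK3, the PERK sensor kinase, read 8.82, 8.61 and 8.72 on the SK-N-BE(2) shNSC arrays, 9.07, 9.02 and 8.70 with shERK5-4, and 10.38, 10.56 and 10.29 with shERK5-5. In CHLA-90 it read 7.83, 8.32 and 8.37, then 8.65, 8.91 and 8.69, then 9.83, 9.21 and 8.98. The shERK5-5 arrays lay above all shNSC arrays in both lines, and the shERK5-4 arrays did so in CHLA-90 only. With shERK5-5 the log2 change was 1.69 ± 0.20 (SE) in SK-N-BE(2), 3.23-fold (adjusted p = 2.63e-06 by limma), and 1.17 ± 0.20 in CHLA-90, 2.24-fold (adjusted p = 0.000378). With shERK5-4 it was 0.58 ± 0.20 in CHLA-90 (adjusted p = 0.0495), a call lost under 16 of the 25 alternative settings tried, and 0.21 ± 0.20 in SK-N-BE(2) (adjusted p = 0.534).

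CREB3L2, an ER-membrane transcription factor that, like ATF6, is released by cutting in the Golgi and that promotes secretory capacity, read 9.32, 9.54 and 9.80 with shNSC in SK-N-BE(2), 10.00, 10.55 and 10.18 with shERK5-4, and 11.20, 11.33 and 11.84 with shERK5-5. In CHLA-90 the arrays read 8.34, 8.0 and 8.22, then 8.50, 8.83 and 8.62, then 8.68, 9.89 and 9.59. All hairpin arrays lay above the shNSC arrays of their line, with shERK5-5 replicate 1 of CHLA-90 far below the other 2 of its group. CREB3L2 rose by 1.90 ± 0.25 with shERK5-5 in SK-N-BE(2) (3.74-fold, adjusted p = 8.42e-06), by 1.2 ± 0.25 in CHLA-90 (2.30-fold, adjusted p = 0.00207) and by 0.69 ± 0.25 with shERK5-4 in SK-N-BE(2) (adjusted p = 0.0459, a call lost under 12 of 25 alternatives). Its change with shERK5-4 in CHLA-90 was 0.46 ± 0.25 (adjusted p = 0.235).

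XBP1, the factor whose mRNA is spliced by IRE1, read 10.27, 10.75 and 10.35 with shNSC in SK-N-BE(2), 10.48, 10.75 and 10.77 with shERK5-4, and 11.48, 11.92 and 11.66 with shERK5-5. In CHLA-90 all 9 arrays lay between 9.84 and 10.47, and the 3 groups overlapped. XBP1 rose 2.35-fold with shERK5-5 in SK-N-BE(2) (log2 change 1.23 ± 0.18, adjusted p = 4.07e-05). Its change was -0.17 ± 0.18 with shERK5-5 in CHLA-90 (adjusted p = 0.602), 0.21 ± 0.18 with shERK5-4 in SK-N-BE(2) and 0.12 ± 0.18 with shERK5-4 in CHLA-90.

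The other sensors changed with shERK5-4 in SK-N-BE(2). ERN1, which encodes IRE1, read 6.48, 6.14 and 5.94 with shNSC there, 6.92, 6.89 and 7.17 with shERK5-4, and 6.37, 6.37 and 6.44 with shERK5-5. It rose by 0.81 ± 0.15 with shERK5-4 (1.75-fold, adjusted p = 0.000347). In CHLA-90 ERN1 read 5.48, 5.54 and 5.53 with shNSC, 5.87, 5.91 and 5.89 with shERK5-4, and 5.17, 5.11 and 5.15 with shERK5-5. These 3 groups did not overlap, yet the changes of 0.37 ± 0.15 and -0.37 ± 0.15 missed the threshold (adjusted p = 0.104 and 0.121). All these ERN1 signals lay below the array medians of CHLA-90, so its level above background there is unknown. ATF6 read 11.14, 11.25 and 10.97 with shNSC in SK-N-BE(2), 10.26, 10.38 and 10.04 with shERK5-4, and 10.95, 10.77 and 10.57 with shERK5-5. It fell by 0.89 ± 0.16 with shERK5-4, to 53.8% of shNSC (adjusted p = 0.000168), and stood at -0.36 ± 0.16 with shERK5-5 (adjusted p = 0.179). In CHLA-90 ATF6 read 12.41, 12.16 and 12.43, then 11.89, 12.16 and 12.04, then 12.06, 12.02 and 12.14, with changes of -0.30 ± 0.16 and -0.26 ± 0.16 (adjusted p = 0.227 and 0.325). Its paralogue ATF6B ranged from -0.42 to 0.09 over the 4 comparisons and passed in none.

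**Figure D2:**
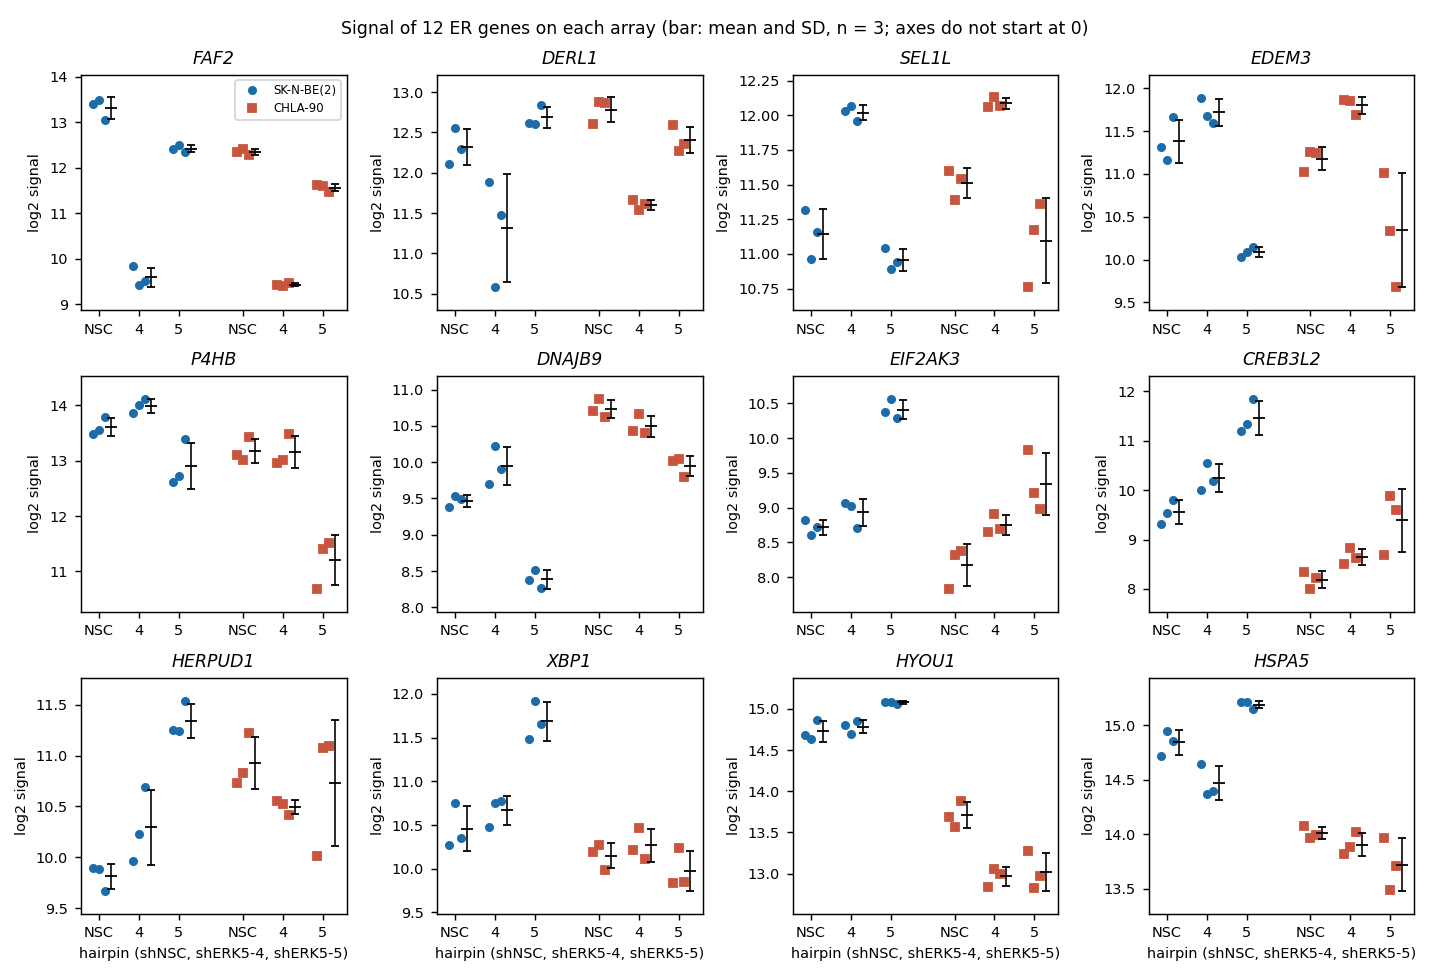
Log2 signal on each array (points), with the mean and SD of the 3 arrays (bars), for 12 ER genes in the 6 groups. FAF2 lies between 9.40 and 9.83 on all shERK5-4 arrays, HERPUD1 and XBP1 are clear of shNSC with shERK5-5 in SK-N-BE(2) and overlap it in CHLA-90, and P4HB with shERK5-5 in CHLA-90 lies between 10.68 and 11.52.

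HSPA5, the central BiP chaperone, passed in none of the 4 comparisons with shNSC. It read 14.72, 14.95 and 14.86 with shNSC in SK-N-BE(2), 14.65, 14.37 and 14.40 with shERK5-4, and 15.21, 15.21 and 15.15 with shERK5-5. The 3 groups did not overlap, with shERK5-5 highest and shERK5-4 lowest. The changes against shNSC were -0.37 ± 0.16 (adjusted p = 0.0953) and 0.35 ± 0.16 (0.18), and the direct difference of shERK5-4 from shERK5-5 was -0.72 ± 0.16 (adjusted p = 0.00113). In CHLA-90 HSPA5 read 14.08, 13.97 and 13.99, then 13.82, 13.88 and 14.02, then 13.97, 13.49 and 13.71, and both hairpin groups overlapped shNSC.

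HYOU1, the large ER chaperone that exchanges nucleotide on BiP, fell with both hairpins in CHLA-90. There it read 13.69, 13.57 and 13.88 with shNSC, 12.84, 13.06 and 13.00 with shERK5-4, and 13.27, 12.82 and 12.97 with shERK5-5, so all 6 hairpin arrays lay below shNSC. It stood at 59.6% of shNSC with shERK5-4 (log2 change -0.75 ± 0.16, adjusted p = 0.0013) and at 61.8% with shERK5-5 (-0.69 ± 0.16, adjusted p = 0.0045). In SK-N-BE(2) it read 14.68, 14.63 and 14.87 with shNSC, 14.80, 14.70 and 14.85 with shERK5-4, and 15.09, 15.09 and 15.06 with shERK5-5, with changes of 0.06 ± 0.16 and 0.35 ± 0.16 (adjusted p = 0.864 and 0.171).

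Of the 3 genes of the sugar-binding branch, CALR, calreticulin, rose by 0.46 ± 0.15 with shERK5-5 in SK-N-BE(2) (adjusted p = 0.0487), a call lost under 15 of 25 alternatives. CANX, calnexin, lay between -0.31 and 0.07 over the 4 comparisons and passed in none. UGGT1, which re-glucosylates misfolded glycoproteins so that calnexin and calreticulin bind them again, fell with shERK5-5 in both lines, to 61.1% of shNSC in SK-N-BE(2) (log2 change -0.71 ± 0.20, adjusted p = 0.0191) and 62.3% in CHLA-90 (-0.68 ± 0.20, adjusted p = 0.0267). The UGGT1 calls were lost under 4 of 25 alternatives in SK-N-BE(2) and 5 of 25 in CHLA-90. Apart from the fit to 1 line in CHLA-90, each loss came from leaving out an array of the compared groups. With shERK5-4 the changes of UGGT1 were 0.01 and -0.06.

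The oxidative folding genes split within shERK5-5. P4HB, the founding protein disulfide isomerase, had the lowest change of the set with shERK5-5 in CHLA-90. It read 13.10, 13.01 and 13.43 with shNSC in CHLA-90, 12.96, 13.01 and 13.49 with shERK5-4, and 10.68, 11.41 and 11.52 with shERK5-5. The shERK5-5 arrays lay more than 1 log2 unit below every other array of the line. P4HB stood at 25.4% of shNSC (log2 change -1.98 ± 0.23, adjusted p = 3.33e-06). In SK-N-BE(2) it read 13.48, 13.55 and 13.79 with shNSC, 13.86, 14.00 and 14.11 with shERK5-4, and 12.61, 12.72 and 13.39 with shERK5-5. It fell to 61.6% of shNSC with shERK5-5 (-0.70 ± 0.23, adjusted p = 0.0462, lost under 11 of 25 alternatives).

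ERO1A, the oxidase that recharges the disulfide isomerases, went the other way. In SK-N-BE(2) it read 14.31, 13.82 and 14.19 with shNSC, 13.67, 13.61 and 13.70 with shERK5-4, and 14.79, 14.84 and 15.05 with shERK5-5. The CHLA-90 arrays read 13.92, 14.15 and 14.05, then 13.79, 13.94 and 14.01, then 14.80, 14.70 and 14.67. All shERK5-5 arrays lay above the shNSC arrays in both lines, and ERO1A rose 1.73-fold in SK-N-BE(2) (log2 change 0.79 ± 0.16, adjusted p = 0.00117) and 1.61-fold in CHLA-90 (0.68 ± 0.16, adjusted p = 0.00529). With shERK5-4 it fell in SK-N-BE(2) (-0.45 ± 0.16, adjusted p = 0.0416, lost under 9 of 25 alternatives) and was at -0.13 ± 0.16 in CHLA-90.

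PDIA6 and PDIA4, further disulfide isomerases, each passed once. PDIA6 rose by 0.58 ± 0.18 with shERK5-5 in SK-N-BE(2) (adjusted p = 0.0356, lost under 7 of 25 alternatives), and PDIA4 fell by 0.64 ± 0.19 with shERK5-4 in SK-N-BE(2) (adjusted p = 0.0141, lost under 2 of 25). PDIA3 ranged from -0.55 to 0.37 and passed in none. ERO1B fell by 0.59 ± 0.21 with shERK5-4 in SK-N-BE(2) (adjusted p = 0.0403, lost under 7 of 25), but its mean signal was under 5 in every group, below the array medians, so its level above background is unknown.

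Among the 7 co-chaperones and secreted ER factors, DNAJB9, an ER J-protein that directs BiP to IRE1 and to ERAD clients, had the largest change with shERK5-5 in each line. It read 9.38, 9.54 and 9.49 with shNSC in SK-N-BE(2), 9.70, 10.22 and 9.91 with shERK5-4, and 8.37, 8.52 and 8.26 with shERK5-5, so the hairpins lay on either side of the control. DNAJB9 fell to 47.1% of shNSC with shERK5-5 (log2 change -1.09 ± 0.16, adjusted p = 5.01e-05) and rose 1.39-fold with shERK5-4 (0.47 ± 0.16, adjusted p = 0.0371, lost under 6 of 25 alternatives). DNAJB9 lost the latter call without shNSC replicate 1, 2 or 3, without shERK5-4 replicate 2 or 3, and in the fit to 1 line. Its CHLA-90 signals were 10.71, 10.87 and 10.62, then 10.43, 10.66 and 10.40, then 10.01, 10.04 and 9.79. It fell to 58% of shNSC with shERK5-5 there (-0.79 ± 0.16, adjusted p = 0.00216) and was at -0.24 ± 0.16 with shERK5-4.

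DNAJC3, a BiP co-chaperone, fell with shERK5-4 in SK-N-BE(2) (-0.65 ± 0.15, adjusted p = 0.00213) and with shERK5-5 in CHLA-90 (-0.57 ± 0.15, adjusted p = 0.0142, lost under 2 of 25 alternatives). MANF, a secreted factor induced by ER stress, rose by 0.63 ± 0.17 with shERK5-5 in SK-N-BE(2) (adjusted p = 0.0151, lost under 2 of 25) and was at -0.42 ± 0.17 in CHLA-90 (adjusted p = 0.122). The remaining co-chaperones DNAJB11, DNAJC10 and SDF2L1, and the ER-stress-induced factor CRELD2, passed in no comparison with shNSC, with changes from -0.57 to 0.64.

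The 11 ERAD genes included the largest fall of the set, that of FAF2 with shERK5-4. With shERK5-4 2 rose and 3 fell in SK-N-BE(2), and 1 rose and 3 fell in CHLA-90. With shERK5-5 3 rose and 3 fell in SK-N-BE(2), and 0 rose and 3 fell in CHLA-90. Of the bright probes, 40.8% and 30.1% were called with shERK5-4, and 22.8% and 20.5% with shERK5-5, so 5 and 4 of 11 with shERK5-4 are near that share.

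FAF2, which recruits the ATPase VCP to the ER membrane, read 13.41, 13.48 and 13.04 with shNSC in SK-N-BE(2), 9.83, 9.42 and 9.51 with shERK5-4, and 12.41, 12.50 and 12.35 with shERK5-5. On the CHLA-90 arrays the values were 12.34, 12.40 and 12.28, then 9.41, 9.40 and 9.46, then 11.61, 11.59 and 11.47. No groups overlapped within a line, and the shERK5-4 arrays were lowest by far. FAF2 stood at 7.57% of shNSC with shERK5-4 in SK-N-BE(2) (adjusted p = 1.33e-13) and 13.2% in CHLA-90 (1.1e-11). With shERK5-5 it stood at 54% (adjusted p = 0.000339) and 58.1% (0.00164). The direct difference of shERK5-4 from shERK5-5 was -2.83 ± 0.16 in SK-N-BE(2) and -2.13 ± 0.16 in CHLA-90 (adjusted p = 6.22e-12 and 1.05e-09).

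VCP, the ATPase that pulls ERAD clients from the membrane, read 14.33, 14.45 and 14.66 with shNSC in SK-N-BE(2), 14.97, 15 and 14.84 with shERK5-4, and 14.86, 15.16 and 15.14 with shERK5-5. It rose there by 0.46 ± 0.15 with shERK5-4 (adjusted p = 0.0267, lost under 5 of 25 alternatives) and by 0.57 ± 0.15 with shERK5-5 (0.0105, lost under 3 of 25). Apart from the fit to 1 line with shERK5-4, each loss came from leaving out an array of the compared groups. In CHLA-90 VCP read 14.68, 14.66 and 14.77, then 14.79, 14.86 and 14.96, then 14.51, 14.50 and 14.53, with changes of 0.17 ± 0.15 and -0.19 ± 0.15 (adjusted p = 0.531 and 0.46).

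HERPUD1, a membrane organiser of the ERAD ligase complex and a classical ER stress target, read 9.89, 9.88 and 9.67 with shNSC in SK-N-BE(2), 9.96, 10.23 and 10.69 with shERK5-4, and 11.25, 11.24 and 11.54 with shERK5-5. It rose 2.89-fold with shERK5-5 (log2 change 1.53 ± 0.24, adjusted p = 8.1e-05), and its change with shERK5-4 was 0.48 ± 0.24 (0.17). In CHLA-90 HERPUD1 read 10.73, 10.83 and 11.22, then 10.55, 10.52 and 10.42, then 10.01, 11.08 and 11.10. There shERK5-5 replicate 1 lay below all shNSC arrays, and replicates 2 and 3 lay within the shNSC range. The change with shERK5-5 was -0.20 ± 0.24 (adjusted p = 0.664).

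The ligase and its partner differed. SYVN1, the ubiquitin ligase HRD1, read 10.66, 11.23 and 10.63 with shNSC in SK-N-BE(2), 10.71, 10.93 and 10.59 with shERK5-4, and 11.60, 11.41 and 11.65 with shERK5-5, a rise of 0.71 ± 0.20 with shERK5-5 (adjusted p = 0.0187, lost under 4 of 25 alternatives). In CHLA-90 it read 11.93, 11.93 and 12.35, then 11.38, 11.77 and 11.05, then 11.95, 11.70 and 11.92, and it fell by 0.67 ± 0.20 with shERK5-4 (adjusted p = 0.0212, lost under 3 of 25). SEL1L, the adaptor that stabilises HRD1, rose with shERK5-4 in both lines. It read 11.32, 10.96 and 11.16 with shNSC in SK-N-BE(2), 12.03, 12.07 and 11.96 with shERK5-4, and 11.04, 10.89 and 10.94 with shERK5-5. The CHLA-90 arrays read 11.60, 11.39 and 11.54, then 12.06, 12.13 and 12.07, then 10.76, 11.17 and 11.36. The rises were 1.83-fold (adjusted p = 0.000273) and 1.49-fold (0.0149, lost under 2 of 25).

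EDEM1, EDEM2 and EDEM3 encode mannosidase-like proteins that mark glycoproteins for degradation. EDEM1 read 7.48, 7.16 and 7.49 with shNSC in SK-N-BE(2), 6.71, 6.23 and 5.95 with shERK5-4, and 5.96, 6.52 and 6.35 with shERK5-5. Its CHLA-90 signals were 7.91, 8.15 and 8.03, then 8.02, 7.88 and 8.32, then 6.68, 7.19 and 6.95. It fell to 47.3% of shNSC with shERK5-4 (adjusted p = 0.000317) and 46.7% with shERK5-5 (0.000577) in SK-N-BE(2), and to 47% with shERK5-5 in CHLA-90 (0.000876), but was at 0.04 ± 0.20 with shERK5-4 in CHLA-90.

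EDEM3 read 11.32, 11.16 and 11.66 with shNSC in SK-N-BE(2), 11.89, 11.68 and 11.59 with shERK5-4, and 10.03, 10.09 and 10.15 with shERK5-5. On the CHLA-90 arrays the values were 11.02, 11.26 and 11.25, then 11.86, 11.85 and 11.69, then 11.01, 10.34 and 9.68. The shERK5-5 arrays lay below shNSC in both lines, though in CHLA-90 replicate 1 did so by only a hundredth of a unit. EDEM3 fell to 40.9% of shNSC in SK-N-BE(2) (adjusted p = 0.000344) and 56.1% in CHLA-90 (0.0184). The CHLA-90 change of -0.83 went to -1.17 without shERK5-5 replicate 1 and to -0.50 without shERK5-5 replicate 3, and its call was lost under 4 of 25 alternatives. EDEM2 passed in no comparison with shNSC.

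DERL1, a channel component through which ERAD clients leave the ER, fell with shERK5-4 in both lines. It read 12.11, 12.56 and 12.29 with shNSC in SK-N-BE(2), 11.89, 10.58 and 11.48 with shERK5-4, and 12.62, 12.61 and 12.84 with shERK5-5. In CHLA-90 it read 12.60, 12.88 and 12.86, then 11.66, 11.54 and 11.61, then 12.59, 12.27 and 12.36. DERL1 stood at 49.9% of shNSC in SK-N-BE(2) (adjusted p = 0.00202) and 44.2% in CHLA-90 (0.000673), with shERK5-4 replicate 2 of SK-N-BE(2) lowest of all. Without that array the SK-N-BE(2) change was -0.635, and it was still called. Its paralogues DERL2 and DERL3 passed in none, with changes from -0.51 to 0.14.

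At the entry and exit of the ER, SEC61B, a subunit of the translocon, read 10.89, 10.66 and 11.02 with shNSC in CHLA-90, 11.31, 10.94 and 11.66 with shERK5-4, and 9.93, 9.66 and 9.86 with shERK5-5. All shERK5-5 arrays lay below the other arrays of the line, and SEC61B fell to 48.6% of shNSC (log2 change -1.04 ± 0.18, adjusted p = 0.000452). In SK-N-BE(2) it read 11.98, 11.94 and 12.07, then 11.81, 11.79 and 12.23, then 12.13, 12.08 and 12.25, and passed with neither hairpin. SEC24D, a cargo-binding subunit of the COPII coat that buds vesicles from the ER, fell by 0.56 ± 0.15 with shERK5-4 in SK-N-BE(2) (adjusted p = 0.00637) and lay between -0.27 and 0.21 elsewhere.

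The hairpin comparisons of a line share its shNSC arrays, so a gene called with both of them is no independent repeat. In SK-N-BE(2) VCP and CREB3L2 were called higher and EDEM1 and FAF2 lower with both, 4 of 37, against 5.21% of all probes. All 4 are bright, and 9.33% of bright probes were called so. In CHLA-90 EIF2AK3 was called higher and HYOU1 and FAF2 lower with both, 3 of 37, against 3.51% of all probes and 6.07% of the bright ones. The count of 4 became 2 without SK-N-BE(2) shNSC replicate 1 or 2, shERK5-4 replicate 2 or shERK5-5 replicate 2, and the count of 3 became 2 without any 1 of 12 arrays.

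The 2 lines share no arrays, and the same hairpin can be set side by side in them. With shERK5-5, 9 of 37 genes were called the same way in both lines, against 4.58% of all probes and 8.82% of the bright ones. ERO1A, EIF2AK3 and CREB3L2 were higher, and UGGT1, P4HB, DNAJB9, EDEM1, EDEM3 and FAF2 lower. Since the set was chosen with earlier results of these data known, the count of 9 describes the list. With shERK5-4, 3 of 37 were called alike, against 10.4% of all probes and 19.4% of the bright ones: SEL1L higher, DERL1 and FAF2 lower. As a description, the log2 changes of the 37 genes in the lines correlated with r = 0.71 for shERK5-5 (0.37 over all probes) and r = 0.80 for shERK5-4 (0.60 over all probes), the latter falling to 0.51 without FAF2. The points share the hairpin, its sequence and the array design. All probes include the dimmer part of the array, to which few of the 37 belong. No correlation over the bright probes alone was computed, so the 2 sets are unlike.

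**Figure D3:**
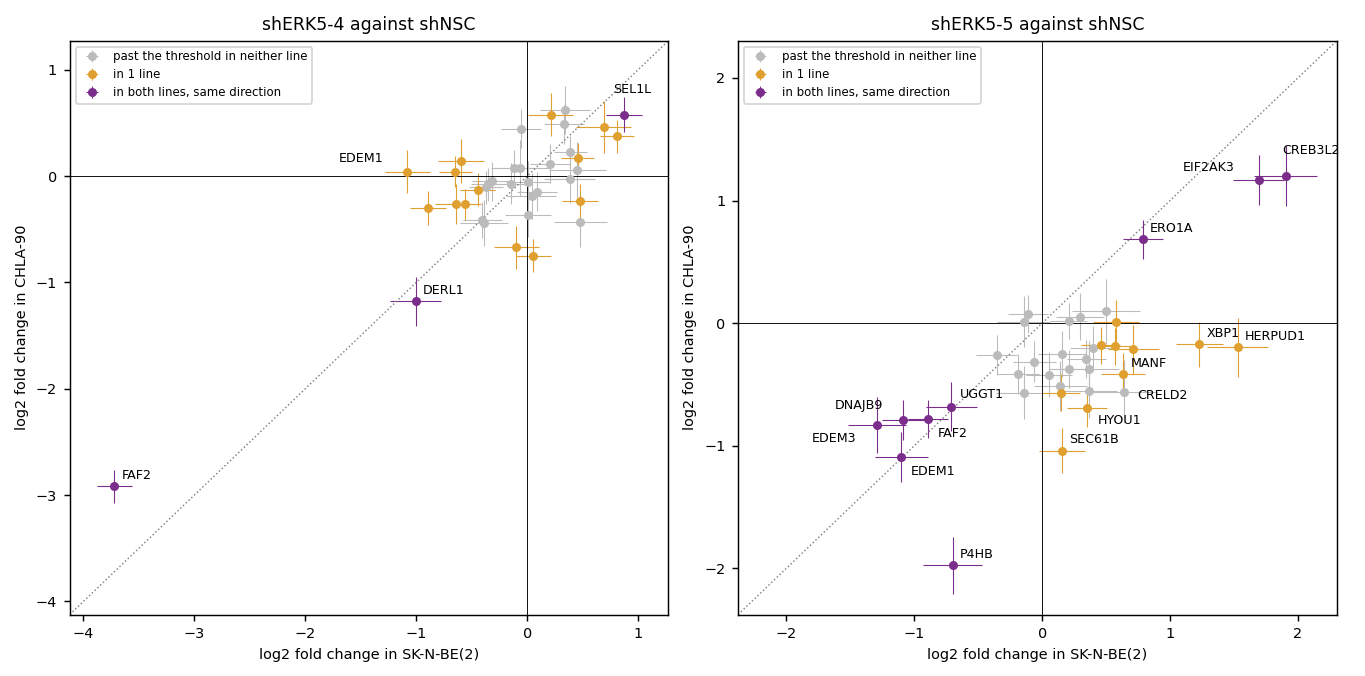
Log2 change against shNSC in SK-N-BE(2) (x axis) and CHLA-90 (y axis) of the 37 ER genes, with standard errors as bars, for shERK5-4 (left) and shERK5-5 (right). Purple marks genes past the threshold alike in both lines, 3 with shERK5-4 and 9 with shERK5-5, and many other genes lie below the diagonal with shERK5-5.

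The 2 hairpins were also compared directly, without the control arrays. In SK-N-BE(2) 21 of 37 genes differed, 6 higher and 15 lower with shERK5-4 than with shERK5-5, against 24.5% of all probes (11.8% higher, 12.6% lower) and 41.9% of the bright ones. In CHLA-90 16 differed, 11 higher and 5 lower, against 27.2% (14.8% higher, 12.4% lower) and 41.4% of the bright ones. Among the 33 bright ER genes, 20 differed in SK-N-BE(2) and 15 in CHLA-90, the latter near the bright share. In SK-N-BE(2) the lower genes included XBP1 (-1.02 ± 0.18, adjusted p = 0.000137), HERPUD1 (-1.05 ± 0.24, 0.00175), MANF (-1.04 ± 0.17, 6.33e-05), PDIA6 (-0.90 ± 0.18, 0.000522) and PDIA4 (-0.80 ± 0.19, 0.00255). In both lines EDEM3 (1.63 and 1.46), DNAJB9 (1.56 and 0.55), P4HB (1.08 and 1.95), SEL1L (1.06 and 0.99), ERN1 (0.60 and 0.75) and UGGT1 (0.72 and 0.62) were higher with shERK5-4, and ERO1A, DERL1, FAF2, EIF2AK3 and CREB3L2 were lower.

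Whether an effect differed between the lines was tested as the change in CHLA-90 minus the change in SK-N-BE(2). For shERK5-5, 8 of 37 genes passed, 0 higher and 8 lower, against 5.39% of all probes (2.4% higher, 2.99% lower) and 8.64% of the bright ones. The median difference of the 37 was -0.57, against 0.04 over all probes. Of the 37, 29 were negative and 8 positive, while 53.7% of all probes were positive. HERPUD1 (-1.73 ± 0.34, 95% interval -2.43 to -1.03, adjusted p = 0.00397), XBP1 (-1.40 ± 0.26, -1.93 to -0.87, 0.00223) and MANF (-1.05 ± 0.24, -1.56 to -0.54, 0.0135) had risen in SK-N-BE(2), and their negative changes in CHLA-90 had missed the threshold. HYOU1 (-1.05 ± 0.22, adjusted p = 0.00713) and SEC61B (-1.20 ± 0.26, 0.00821) had fallen in CHLA-90, and their positive changes in SK-N-BE(2) had missed it. P4HB (-1.28 ± 0.32, 0.0231) had fallen in both lines, further in CHLA-90. VCP (-0.76 ± 0.21, 0.0351) and DNAJC3 (-0.72 ± 0.21, 0.0492) were closer to the threshold. HSPA5 differed by -0.64 ± 0.22 (adjusted p = 0.0986) and CRELD2 by -1.20 ± 0.36 (0.0567), and neither passed. The count of 8 became 5 without SK-N-BE(2) shNSC replicate 1, SK-N-BE(2) shERK5-5 replicate 3, CHLA-90 shNSC replicate 3 or CHLA-90 shERK5-5 replicate 1.

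**Figure D4:**
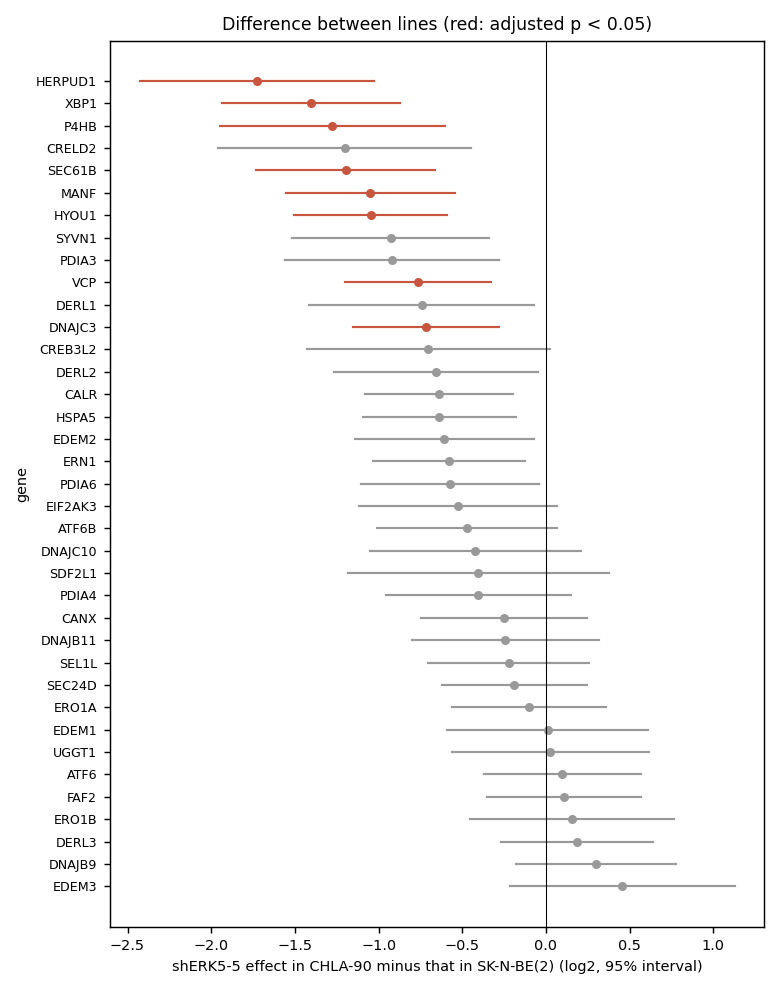
Difference between the lines in the shERK5-5 effect (CHLA-90 minus SK-N-BE(2), log2) with its 95% interval for each of the 37 ER genes. The 8 genes past the threshold all lie below 0, from HERPUD1 at -1.73 to DNAJC3 at -0.72.

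For shERK5-4 the difference between the lines passed for 4 of 37 genes, against 7.23% of all probes and 11.1% of the bright ones, and the median difference was -0.01, against 0.00 over all probes. EDEM1 (1.12 ± 0.29, adjusted p = 0.018) had fallen in SK-N-BE(2) only, FAF2 (0.81 ± 0.22, 0.0279, but 0.48 with adjusted p = 0.258 under quantile normalization, lost under 10 of 24 alternatives) had fallen further in SK-N-BE(2), HYOU1 (-0.80 ± 0.22, 0.0272) had fallen in CHLA-90 only, and DNAJC3 (0.69 ± 0.21, 0.0491) had fallen in SK-N-BE(2) only. This count is weak. It became 0 without SK-N-BE(2) shERK5-4 replicate 3, 1 without SK-N-BE(2) shNSC replicate 1 or 2 or without replicate 1 or 3 of CHLA-90 shNSC or CHLA-90 shERK5-4, and 2 without replicate 2 of either line's shERK5-4 arrays.

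Under the control hairpin alone, many of these genes had different signals in the 2 lines. Of 37, 12 were higher and 16 lower in CHLA-90 than in SK-N-BE(2), 28 in all, against 60% of all probes (48.4% higher, 11.6% lower). Of the bright probes 68.5% were called, and 25 of the 33 bright ER genes were, near that share. The median difference of the 37 was -0.31, against 0.45 over all probes, and the latter moves with how the arrays of the lines are scaled. With all arrays set to 1 common median the split was 3 higher and 23 lower, and with quantile normalization 8 higher and 20 lower, and the median over all probes became -0.27 and -0.03. Both chaperones, HSPA5 (-0.83 ± 0.16) and HYOU1 (-1.01 ± 0.16), were lower in CHLA-90. So were 4 of 6 oxidative folding genes, PDIA4 (-1.21 ± 0.19), PDIA3 (-0.68 ± 0.22), ERO1B (-0.64 ± 0.21) and PDIA6 (-0.51 ± 0.18), while P4HB (-0.43 ± 0.23) and ERO1A (-0.07 ± 0.16) were not called. ATF6 (1.21 ± 0.16), ATF6B (1.14 ± 0.18), SYVN1 (1.23 ± 0.20), DNAJB9 (1.26 ± 0.16) and HERPUD1 (1.11 ± 0.24) were higher. With 1 common median HERPUD1 went to 0.395 (adjusted p = 0.175) and ATF6B to 0.42 (0.0593), and both calls were lost, as were those of UGGT1, DNAJC10, CRELD2, DERL2 and DERL3. The signs of MANF (0.46 ± 0.17) and EDEM1 (0.65 ± 0.20) turned under both other scalings.

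The promoter element gives another view of the set. Of the 10 measured genes with either form of the ER stress element, 4 rose and 0 fell with shERK5-5 in SK-N-BE(2) (CALR, PDIA6, HERPUD1 and XBP1), 8 had a positive change, and their median was 0.48. Of all probes, 6.76% were higher there and 49.4% had a positive change, and 22.8% of the bright ones were called. The 23 measured genes with a window and no element had a median of 0.15, with 6 higher and 6 lower. With shERK5-5 in CHLA-90 the medians were -0.19 (0 higher, 1 lower) and -0.42 (3 higher, 8 lower), with shERK5-4 in SK-N-BE(2) 0.00 (0 and 1) and 0.01 (5 and 6), and with shERK5-4 in CHLA-90 0.07 (0 and 1) and -0.06 (2 and 2). The difference between these groups was not tested, and a match in a window does not show that a factor binds there.

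Neighbouring pathways were described by lists of genes apart from the 37, also chosen with earlier results of these data known. Of 15 genes of the PERK and ATF4 arm, 7 rose and 0 fell with shERK5-5 in SK-N-BE(2), with a median of 0.52, against 6.76% of all probes higher and 6.07% lower there, and 22.8% of the bright ones called. They included CHAC1, a glutathione-degrading enzyme (2.52 ± 0.21), VLDLR (1.67 ± 0.22), ASNS, asparagine synthetase (1.44 ± 0.18), TRIB3 (0.67 ± 0.19), ATF4 (0.54 ± 0.16, adjusted p = 0.029) and DDIT3, the factor CHOP (0.52 ± 0.17, 0.0496). In CHLA-90 with shERK5-5 2 rose and 0 fell (ASNS 0.83 ± 0.18 and VLDLR 0.80 ± 0.22, median -0.12). With shERK5-4 3 rose and 1 fell in SK-N-BE(2) (median 0.00), and 0 rose and 3 fell in CHLA-90 (CHAC1, ASNS and VLDLR, median -0.18).

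Of 12 genes of the COPII coat, 4 rose and 0 fell with shERK5-4 in each line: SEC23A, SEC23B, SEC24A and SAR1A, against 12.2% of all probes higher in SK-N-BE(2) and 10% in CHLA-90. Of the bright probes, 40.8% and 30.1% were called with shERK5-4 in these lines. With shERK5-5 3 rose and 0 fell in SK-N-BE(2) and 1 rose and 0 fell in CHLA-90. Of 22 measured genes of the translocon, signal peptidase and oligosaccharyltransferase, 4 rose and 1 fell with shERK5-5 in SK-N-BE(2), and 1 rose and 6 fell in CHLA-90. DDOST, an oligosaccharyltransferase subunit, fell with shERK5-5 in both (-1.01 ± 0.17 and -2.41 ± 0.17), and SEC61A1, the translocon pore, rose in SK-N-BE(2) (0.97 ± 0.21). With shERK5-4 2 rose and 2 fell in SK-N-BE(2), and 1 rose and 2 fell in CHLA-90.

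Of 18 other ER folding enzymes measured, 5 rose and 1 fell with shERK5-4 and 5 rose and 0 fell with shERK5-5 in SK-N-BE(2), and 1 rose and 1 fell, and 2 rose and 5 fell, in CHLA-90. TMX1, a membrane disulfide isomerase, fell with shERK5-4 in both lines (-3.55 ± 0.17 and -2.80 ± 0.17). Of 20 other ERAD genes measured, 3 rose and 4 fell with shERK5-4 and 0 rose and 2 fell with shERK5-5 in SK-N-BE(2), and 1 rose and 4 fell, and 0 rose and 5 fell, in CHLA-90. ERLIN1, which marks membrane proteins for ERAD, fell in all 4 comparisons, with changes of -1.91, -0.65, -1.43 and -0.92 in that order. FAM8A1, a cofactor of HRD1, did so too, with -1.19, -2.24, -1.73 and -1.32. Of 13 measured regulators around the sensors, 4 rose and 2 fell, then 2 and 0, in SK-N-BE(2), and 3 and 3, then 0 and 0, in CHLA-90. Of 13 measured cytosolic heat shock genes, 1 rose and 2 fell, then 1 and 0, in SK-N-BE(2), and 5 and 2, then 0 and 0, in CHLA-90, where HSPA1A (0.84 ± 0.19) and DNAJB1 (1.02 ± 0.19) rose with shERK5-4. The counts of all these lists come from limma with adjustment over all probes. They are to be read beside the shares of all probes and of bright probes called. With shERK5-4 23.9% of all probes were called for SK-N-BE(2) and 18.3% for CHLA-90, and with shERK5-5 12.8% and 12.7%. Of the bright probes, 40.8% and 30.1% were called with shERK5-4, and 22.8% and 20.5% with shERK5-5.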

How the data were processed

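Total RNA was labelled with biotin for whole-transcript arrays, per the labels. The authors deposited values for 21448 probes, 2 decimals each, normalized by them, and these were taken as log2. The values span what base 2 would give, and no source states the base. The summarisation method is not given in the sources used here, nor are its software and the genome build. Of the probes, 17709 carried 1 symbol. The other 3739 carried none or several, and were not used for any named gene. The ER genes and the other lists were chosen with earlier results of these data known. Each of the 37 had 1 probe that carried its symbol alone. One model with a mean per group was fitted to all 18 arrays with limma 3.58.1 in R 4.3.3 (12 residual and 9.588 prior degrees of freedom), and was tested on simulated data. Errors of changes are standard errors of the model, and p-values measure the spread between the arrays, since the labels call them biological triplicates without naming separate cultures. No 2 arrays of a group were identical.

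Values per array are given for genes called alike with both hairpins of a line or oppositely with them, for up to 4 called genes with the highest and the lowest change in each comparison, and for HSPA5, XBP1, ATF6, ERN1 and EIF2AK3; the others are given by range or change. Alternatives were median centring within lines or to 1 common median, quantile normalization, leaving out probes below the 25 percentile, fits to 1 line, a replicate block, eBayes with trend and robust estimation, the mean of a gene's probes, and leaving out each array. Leaving out an array of the other line cannot move the log2 change of a hairpin, nor could the mean of a gene's probes here. The 25 alternatives of a hairpin call thus include settings that could alter it only through the model's spread or the adjustment. Few losses out of 25 therefore do not make a call stable. Motifs were searched with Python 3.11.15, and figures drawn with matplotlib 3.10.9. ER stress element II was added after the other motifs. Arrays have no depth, and their number limits the precision.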

Additional observations from a re-analysis of the deposited data

Results flagged for a closer look

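The change with a hairpin differed between the lines, past limma's threshold for the difference itself, for the following genes (CHLA-90 minus SK-N-BE(2), log2). With shERK5-4 these were EDEM1 at 1.12, FAF2 at 0.81, DNAJC3 at 0.69 and HYOU1 at -0.80. With shERK5-5 these were HERPUD1 at -1.73, XBP1 at -1.40, P4HB at -1.28, SEC61B at -1.20, MANF at -1.05, HYOU1 at -1.05, VCP at -0.76 and DNAJC3 at -0.72. HYOU1 and DNAJC3 appear with both hairpins, and DNAJC3 with opposite signs. With shERK5-4 the calls were lost under 18 of 24 alternatives for DNAJC3, 10 for FAF2, 6 for HYOU1 and 2 for EDEM1. With shERK5-5 they were lost under 17 for DNAJC3, 10 for VCP and 5 for P4HB, and under 0 for the other 5 genes.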

How the results depend on the processing

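Of 125 single-gene calls, 79 kept their side of the threshold and their direction under every alternative. In the comparison of the lines under shNSC, MANF went to -0.26 and EDEM1 to -0.065 with 1 common median, and to -0.22 and -0.0218 with quantile normalization, which also took the genes with a line difference for shERK5-4 from 4 to 2. Leaving out 1 array gave 9 to 15 called genes with shERK5-4 and 10 to 16 with shERK5-5 in SK-N-BE(2), 4 to 7 and 10 to 13 in CHLA-90, 2 to 5 and 2 to 3 with both hairpins, 20 to 22 and 13 to 16 between hairpins, 0 to 5 and 5 to 9 for the line differences, and 24 to 29 between lines. The causes were not tested. Same-numbered arrays correlated above 0.1 in 3 of 9 pairs in SK-N-BE(2) and 4 of 9 in CHLA-90, short of every pair, so the numbers were not taken as pairing the samples. All 3 pairs of replicate 3 exceeded 0.1 in both lines (0.114 to 0.204), and 10 of 18 arrays correlated best with their own number. With the replicate block the 4 hairpin counts were 13, 15, 5 and 12, those between hairpins 21 and 16, and the line differences 4 and 8. Unknown probe background limits dim genes such as ERO1B, SDF2L1 and DERL3, and ERN1 in CHLA-90, and small changes can be missed with 3 arrays.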
